A study of Mus musculus with 6 samples.

Results

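Expression of 37 cell cycle and proliferation genes was examined in the brown adipose tissue (BAT) of mice fed a high-fat diet (HFD) or a low-fat diet (LFD). The genes were chosen by symbol for the known roles of their products in DNA replication, mitosis and cell division. All 37 were found once among the 47729 genes of the deposited tables, and all 37 passed the filter on low counts that left 17668 genes for testing. The 6 mice were wild type C57BL/6J males that were single-housed and were on their diet from 6 to 10 weeks of age. The HFD group (n = 3) received a 45% high-fat diet for 4 weeks and the LFD group (n = 3) a standard rodent diet. The 3 mice of each diet were those with the greatest, the medium and the least fat mass of their group, and which replicate number belongs to which mouse is not given in the sources used here. Total RNA from a piece of the right interscapular fat pad was depleted of ribosomal RNA and sequenced. Each value therefore describes that piece of tissue with every cell type in it.

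Cells that divide switch on these genes in waves. E2F transcription factors start the first wave as a cell enters S phase, with the MCM helicase, the loading factor *Cdt1*, the sliding clamp *Pcna* and the enzymes that make nucleotides. The second wave comes in G2 and mitosis, with cyclin-dependent kinase 1, its cyclins, the Aurora and Polo kinases, and the motors and crosslinkers of the spindle, and it depends on *Foxm1* and B-Myb complexes. Mature brown adipocytes seldom divide. Proliferation in this tissue is known from progenitor cells, endothelial cells and immune cells.

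The deposited tables gave between 17156991 and 21603487 rounded expected counts per mouse. Levels below are given as TPM, transcript abundances that account for gene length and add up to 1000000 in each library, and fold changes come from the counts with edgeR's quasi-likelihood test as log2 of HFD over LFD. Where 3 values are listed for a diet, they are those of replicates 1, 2 and 3 in that order. Whether the numbers follow a ranking of the mice is not known. LFD replicates 1 and 3 stood apart from the other mice in the genes described here, in opposite directions. The fold changes given with a standard error for the 37 genes are therefore also given without LFD replicate 1 and without LFD replicate 3. The libraries also differed in makeup. Mitochondrially encoded genes took 3.87% of counts in LFD replicate 3 and between 8.5% and 22.7% in the other mice. *Ucp1*, which marks brown adipocytes, stood between 796 and 4021 TPM in HFD-fed mice and between 11.03 and 443 TPM in LFD-fed mice. Summed over 12 skeletal muscle markers the level was between 7.38 and 194 TPM in HFD-fed mice and between 1904 and 13238 TPM in LFD-fed mice.

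No difference between the diets passed the test for any of the 37 genes. With a call set at a log2 fold change beyond 1.5 either way and an adjusted p below 0.01, edgeR made 0 calls among them, against 0% of all genes tested in either direction. DESeq2 called 0 of them as well and gave 1 of them, *Cdk1*, no adjusted p. It called 0.355% as higher and 1.02% as lower in HFD-fed mice of the 29856 genes with any count, a larger set than the 17668 tested with edgeR. At an unadjusted p under 0.05, 0 of the 37 genes were higher and 0 were lower, while 3.86% of all genes tested were higher and 6.62% lower. The lowest adjusted p among the 37 genes was 0.504, for *Pcna*. For 0 of the genes did all mice of one diet lie above or below those of the other diet on the log2 CPM scale (counts scaled to the library, with TMM factors), while 6.72% of all genes separated upwards and 9.23% downwards.

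The intervals around the fold changes were wide. Standard errors of the log2 fold changes ran from 0.33 for *Mcm7* to 1.12 for *Plk1*. The 95% interval included 0 for all 37 genes and included both a doubling and a halving (log2 values of 1 and -1) for 28 of them. For 3 genes, *Mcm7*, *Cdc45* and *Ccne1*, the upper bound lay below a doubling in HFD-fed mice. The fold change lay above 0 in 33 of 37 genes (89.2%), where 45.6% of all genes tested lay above 0, and the 4 genes below 0 were *Cdc45*, *Ccne1*, *Ccnb2* and *Foxm1*. The median was 0.24 on the log2 scale for the 37 genes and -0.05 for all genes tested. In a bulk tissue, fewer dividing cells and less RNA of these genes per cell cannot be told apart.

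**Figure D1:**
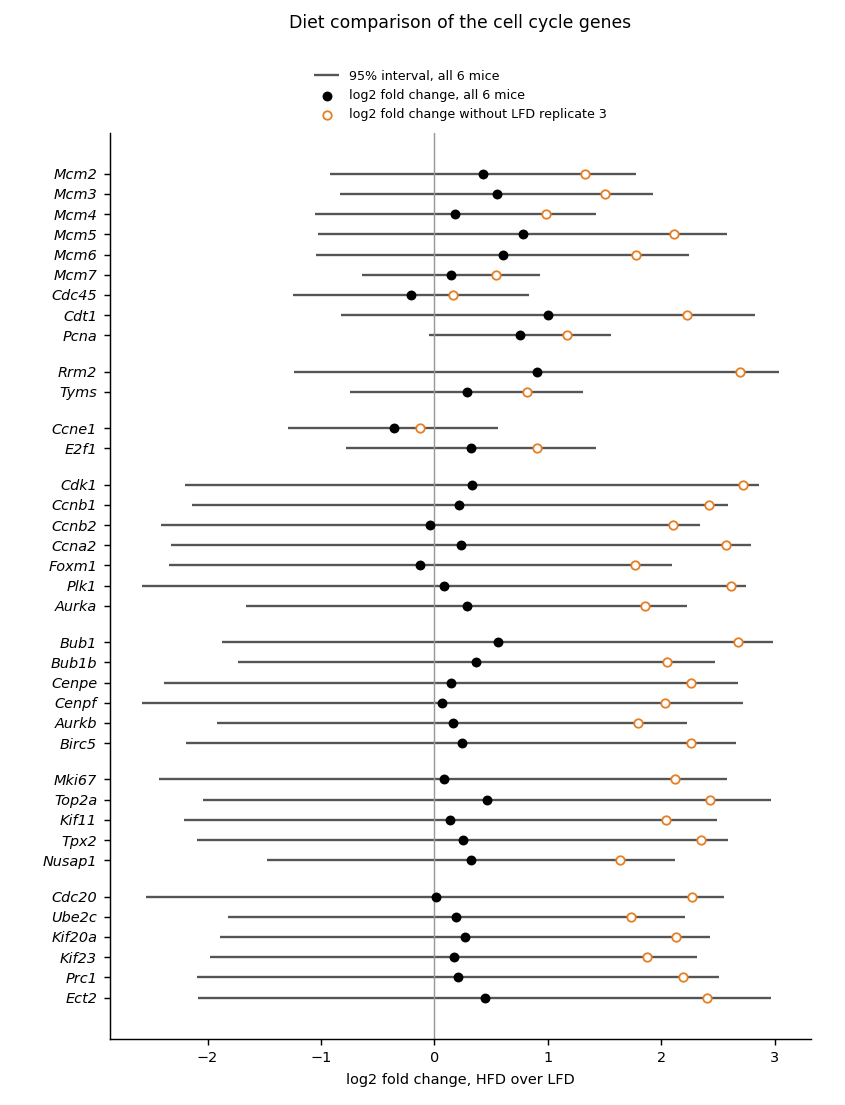
The horizontal axis gives the log2 fold change of HFD over LFD and each line is 1 of the 37 genes, grouped by role from the MCM helicase at the top to cytokinesis at the bottom. Black points with their 95% intervals come from all 6 mice, with a median of 0.24 and every interval across 0, and open orange points come from the fit without LFD replicate 3, with a median of 2.05. The fit without LFD replicate 1, with a median of -0.23, is not drawn.

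The levels differed most between the LFD-fed mice, with the HFD-fed mice in between. In 30 of 37 genes (81.1%), LFD replicates 1 and 2 lay below every HFD-fed mouse and LFD replicate 3 lay above every one, on the log2 CPM scale. This arrangement was found in 5.07% of all genes tested. LFD replicate 1 was the lowest of the 6 mice in 33 genes, against 31.8% of all genes, and LFD replicate 3 was the highest in 32 genes, against 21.0%. One complete order of the mice, from LFD replicate 1 through LFD replicate 2 and HFD replicates 1, 2 and 3 to LFD replicate 3, was shared by 22 of the 37 genes and by 1.91% of all genes tested. That order, the most frequent among the 37 genes, and the arrangement above were picked from the values of these same genes. The shares of all genes beside them are therefore a description and no test. Another 7 genes, among them *Cdk1*, *Aurka* and *Mcm6*, differed from that order only by an exchange of HFD replicates 1 and 2. The 8 genes with other orders were *Mcm5*, *Mcm7*, *Cdc45*, *Cdt1*, *Pcna*, *Rrm2*, *Tyms* and *Ccne1*, and all of them belong to DNA replication or to entry into S phase.

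**Figure D2:**
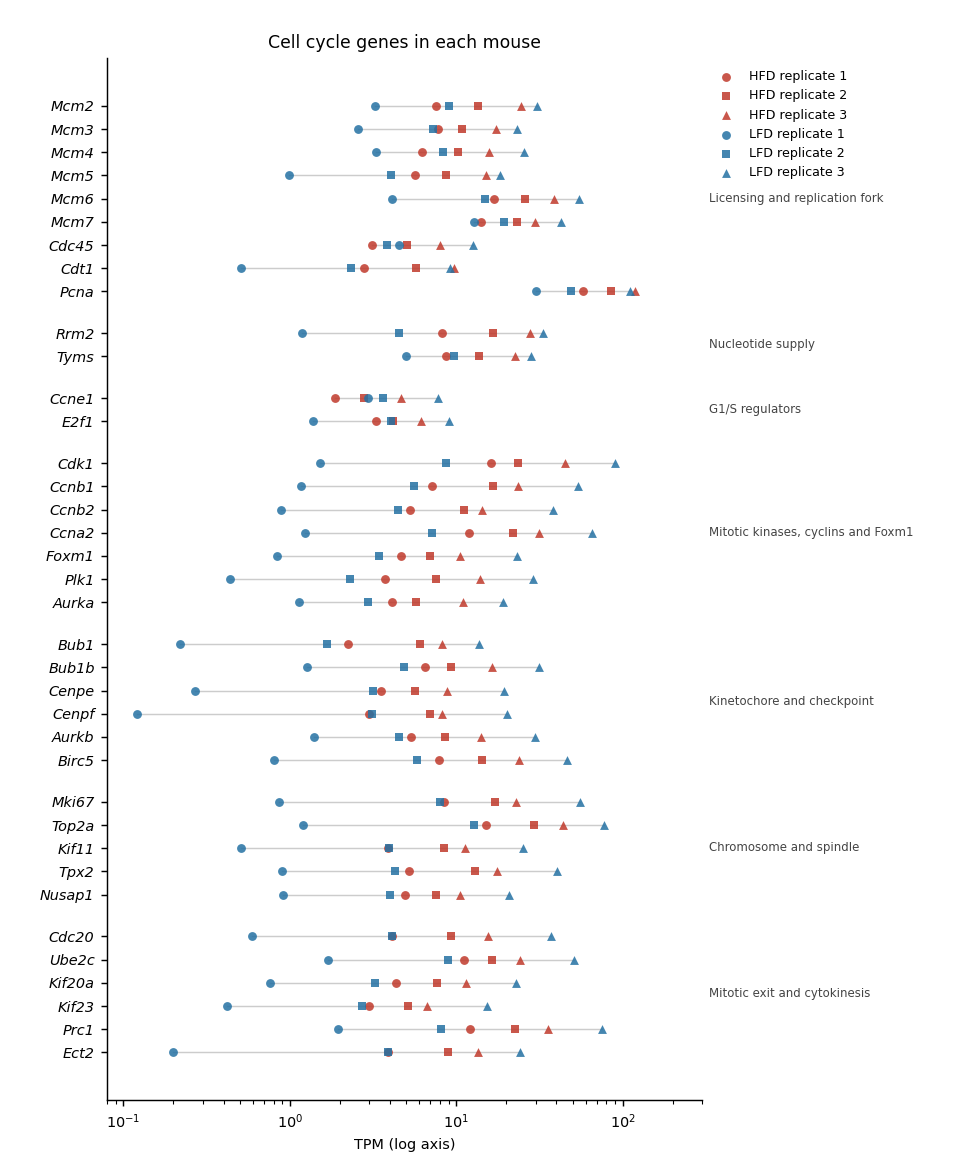
The horizontal log axis gives the level in TPM and each line is 1 gene, with red symbols for the 3 HFD-fed mice and blue symbols for the 3 LFD-fed mice (circle, square and triangle for replicates 1, 2 and 3). The blue circle is at the far left and the blue triangle at the far right for most genes, from 0.12 to 20.2 TPM for *Cenpf*, with the red symbols between them.

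Since most of these genes varied together, the sequences in front of their start sites were compared. Promoter windows of 250 bases before to 50 bases after the start were taken from RefSeq (GRCm38.p6) and matched 31 of the 37 genes, and *Foxm1*, *Ccna2*, *Kif20a*, *Tpx2*, *Aurkb* and *Mcm4* had no entry. Words were searched on both strands, namely the CHR element of late cell cycle genes (TTTGAA or TTTAAA), the CCAAT box of NF-Y (CCAAT), and E2F words (TTCCCGC or TTCGCGC or TTGCCGC or TTGGCGC). E2F words and CCAAT may overlap by their shared letters, and a match is a stretch of letters and no proof of binding. A CHR word was found in 17 of 19 mitotic genes (89.5%), in 3 of 8 licensing and fork genes (37.5%) and in 27.6% of all 32851 promoter windows. The CCAAT word alone was found in similar shares of both groups, in 17 of 19 mitotic genes (89.5%) and 7 of 8 licensing and fork genes (87.5%), and in 37.4% of all windows. CHR and CCAAT words together were found in 16 of 19 mitotic genes (84.2%), in 3 of 8 licensing and fork genes, and in 10.7% of all windows. E2F words were found in 4 of 19 mitotic genes (21.1%), in 5 of 8 licensing and fork genes (62.5%) and in 9.57% of all windows. A gene with several windows was counted once if any of its windows held the word.

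The 150 bases before the RefSeq start are shown for 3 mitotic genes, whose LFD-fed mice differed by 59.5-fold to 64.5-fold, and for *Mcm6*, whose LFD-fed mice differed by 13.4-fold. All 4 lie on the minus strand and are read 5′ to 3′ towards the start, at chr4:118437344-118437493 for *Cdc20*, chr10:69352913-69353062 for *Cdk1*, chr7:135716380-135716529 for *Mki67* and chr1:128359706-128359855 for *Mcm6* (GRCm38.p6). Capitals mark the CHR, CCAAT and E2F words on either strand, so that ATTGG is a CCAAT box read from the other strand.
Cdc20: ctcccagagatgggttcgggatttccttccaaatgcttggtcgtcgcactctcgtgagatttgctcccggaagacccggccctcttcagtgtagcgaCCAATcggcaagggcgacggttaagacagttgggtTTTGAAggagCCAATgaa
Cdk1: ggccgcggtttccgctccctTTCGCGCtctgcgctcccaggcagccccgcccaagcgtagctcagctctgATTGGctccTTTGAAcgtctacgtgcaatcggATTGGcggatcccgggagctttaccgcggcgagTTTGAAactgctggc
Mki67: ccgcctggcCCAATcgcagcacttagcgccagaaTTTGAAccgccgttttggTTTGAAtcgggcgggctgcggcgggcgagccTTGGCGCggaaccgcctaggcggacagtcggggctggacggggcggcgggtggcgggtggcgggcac
Mcm6: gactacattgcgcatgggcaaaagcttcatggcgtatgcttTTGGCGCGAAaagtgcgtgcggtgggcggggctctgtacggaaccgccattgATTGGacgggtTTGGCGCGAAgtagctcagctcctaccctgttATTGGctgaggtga
In these stretches *Cdc20* held 1 CHR word and 0 E2F words, and *Cdk1* and *Mki67* each held 2 CHR words and 1 E2F word. *Mcm6* held 0 CHR words and 4 E2F words. The 4 genes are examples, and a link between the words and the spread was not tested. *Bub1* had no CHR word in its window and a 62.0-fold spread in LFD, and *Cdc45* had CHR words and a 3.30-fold spread.

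Among the licensing and replication fork genes, *Pcna* had the highest level and the smallest p of the 37 genes. *Pcna* (ENSMUSG00000027342, chr2:132249162-132253314, minus strand), the clamp that holds DNA polymerase on its template, stood at 57.9, 85.2 and 118 TPM in the HFD-fed mice and at 30.1, 48.7 and 111 TPM in the LFD-fed mice. LFD replicate 3 lay among the HFD-fed mice and the other LFD-fed mice lay below them. On the log2 scale the difference was 0.75 with a standard error of 0.34 (95% interval -0.05 to 1.56, edgeR unadjusted p = 0.0623, adjusted p = 0.504), and it was 0.59 without LFD replicate 1 and 1.17 without LFD replicate 3. *Cdt1* (ENSMUSG00000006585, chr8:122568015-122573554, plus strand), which loads the helicase onto replication origins, stood at 2.81, 5.73 and 9.73 TPM in HFD-fed mice and at 0.51, 2.34 and 9.22 TPM in LFD-fed mice. The log2 fold change of *Cdt1* was 1.00 with a standard error of 0.77 (adjusted p = 0.742), the highest of the 37 genes in the fit of all 6 mice, and its LFD values spread over 18.1-fold. It was 0.52 without LFD replicate 1 and 2.23 without LFD replicate 3, a fit in which *Cdk1* (2.72) and others were higher.

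The MCM genes encode the 6 subunits of the helicase ring that unwinds DNA, and they varied to different extents. *Mcm6* (ENSMUSG00000026355, chr1:128331590-128359664, minus strand) had the highest mean level of the 6, with 16.9, 25.9 and 38.8 TPM in HFD-fed mice and 4.10, 15.0 and 55.0 TPM in LFD-fed mice. *Mcm5* (ENSMUSG00000005410, chr8:75109569-75128439, plus strand) stood at 5.63, 8.72 and 15.1 TPM in HFD-fed mice and at 0.99, 4.07 and 18.3 TPM in LFD-fed mice. In TPM the LFD-fed mice spanned the range of the HFD-fed mice for both genes, and the log2 fold changes were 0.60 (standard error 0.69, adjusted p = 0.852) for *Mcm6* and 0.78 (standard error 0.76, adjusted p = 0.819) for *Mcm5*. *Mcm6* moved to 0.15 without LFD replicate 1 and to 1.78 without LFD replicate 3, and *Mcm5* to 0.29 and 2.11. Between the highest and the lowest LFD-fed mouse, *Mcm5* differed by 18.5-fold, *Mcm6* by 13.4-fold, and *Mcm2*, *Mcm3* and *Mcm4* by 7.72-fold to 9.37-fold. *Mcm7* differed by 3.31-fold.

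*Cdc45* (ENSMUSG00000000028, chr16:18780447-18811987, minus strand), which joins the MCM ring to form the active helicase, was 1 of the 4 genes with a fold change below 0. Its levels were 3.11, 5.09 and 7.97 TPM in HFD-fed mice and 4.55, 3.84 and 12.7 TPM in LFD-fed mice. LFD replicate 1, the lowest mouse for most of the other genes, lay between HFD replicates 2 and 3 for *Cdc45* on the log2 CPM scale. Its log2 fold change was -0.21 with a standard error of 0.44 (adjusted p = 0.936), and it was -0.18 without LFD replicate 1 and 0.16 without LFD replicate 3. Over all 9 genes of this role the median log2 fold change was 0.55, and the LFD-fed mice differed by 3.30-fold to 18.5-fold in TPM.

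The genes of nucleotide supply and of entry into S phase showed both extremes of the replication genes. *Rrm2*, the cell cycle regulated subunit of ribonucleotide reductase, stood at 8.27, 16.7 and 27.6 TPM in HFD-fed mice and at 1.18, 4.52 and 33.0 TPM in LFD-fed mice, a spread of 28.0-fold in LFD. *Tyms*, which makes thymidylate, stood between 8.65 and 22.5 TPM in HFD-fed mice and between 4.97 and 28.1 TPM in LFD-fed mice. Their log2 fold changes were 0.90 and 0.29, and 2.69 and 0.82 without LFD replicate 3. *Ccne1* (ENSMUSG00000002068, chr7:38097984-38107534, minus strand) encodes cyclin E1, the partner of CDK2 at the start of S phase, and had the lowest fold change of the 37 genes.

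*Ccne1* stood at 1.86, 2.80 and 4.66 TPM in HFD-fed mice and at 2.96, 3.62 and 7.79 TPM in LFD-fed mice. LFD replicate 1 was the second highest mouse on the log2 CPM scale. The difference of -0.36 on the log2 scale had a standard error of 0.39 (95% interval -1.29 to 0.56, edgeR adjusted p = 0.842), and it was -0.32 without LFD replicate 1 and -0.13 without LFD replicate 3. The spread of *Ccne1* over LFD-fed mice, 2.63-fold in TPM, was the smallest of the 37 genes. *E2f1*, the transcription factor that switches on the replication genes, stood between 3.28 and 6.18 TPM in HFD-fed mice and between 1.37 and 9.07 TPM in LFD-fed mice, with a log2 fold change of 0.32.

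The mitotic kinases and cyclins spread far more widely among LFD-fed mice. *Cdk1* (ENSMUSG00000019942, chr10:69335146-69352938, minus strand), the kinase that drives entry into mitosis, stood at 16.2, 23.6 and 45.0 TPM in HFD-fed mice and at 1.51, 8.67 and 89.8 TPM in LFD-fed mice. The highest LFD-fed mouse had 59.5 times the TPM of the lowest, and the highest HFD-fed mouse 2.77 times that of the lowest. The log2 fold change of *Cdk1* was 0.33 with a standard error of 1.06 (95% interval -2.20 to 2.86, adjusted p = 0.961). It was -0.23 without LFD replicate 1 and 2.72 without LFD replicate 3. *Ccnb1*, cyclin B1 and the partner of CDK1, stood at 7.12, 16.7 and 23.6 TPM in HFD-fed mice and at 1.16, 5.55 and 54.1 TPM in LFD-fed mice.

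*Foxm1* (ENSMUSG00000001517, chr6:128362967-128376146, plus strand), a transcription factor for genes of G2 and mitosis, showed the same arrangement of the mice. Its levels were 4.64, 6.98 and 10.6 TPM in HFD-fed mice and 0.84, 3.43 and 23.2 TPM in LFD-fed mice. For *Foxm1* the log2 fold change was -0.13 with a standard error of 0.93 (adjusted p = 0.983), and the sign depended on 1 mouse, with 1.77 when LFD replicate 3 was left out. Without LFD replicate 1 it was -0.66. *Ccna2* (cyclin A2), *Ccnb2* (cyclin B2), *Plk1* (Polo-like kinase) and *Aurka* (Aurora A, the kinase of the spindle poles) followed with log2 fold changes between -0.04 and 0.29. Their LFD-fed mice differed by 16.8-fold for *Aurka* to 65.7-fold for *Plk1*.

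The 6 kinetochore and checkpoint genes spread over 21.3-fold to 168-fold in TPM among LFD-fed mice. Their median of 60.1-fold was the highest of the role groups, while on the log2 CPM scale their median range of 4.62 was also that of the chromosome and spindle genes. *Cenpf*, a large protein of the outer kinetochore, stood at 3.01, 7.0 and 8.26 TPM in HFD-fed mice and at 0.12, 3.10 and 20.2 TPM in LFD-fed mice, which is 168-fold from the lowest to the highest LFD-fed mouse. The low end rests on 23 counts in LFD replicate 1, against 1708 counts in LFD replicate 3, and on the log2 CPM scale the range of *Cenpf* over LFD-fed mice was 5.73, a smaller ratio than in TPM. *Cenpe*, the kinetochore motor, differed by 71.8-fold among LFD-fed mice, and the checkpoint kinase *Bub1* by 62.0-fold. *Bub1b* (BubR1), and *Aurkb* and *Birc5* of the chromosomal passenger complex, differed by 21.3-fold to 58.1-fold. Log2 fold changes of the 6 genes lay between 0.07 and 0.56, and all 6 were above 0.

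*Mki67*, which encodes the proliferation marker Ki-67 that coats mitotic chromosomes, had 6621 counts in LFD replicate 3, the most of the 37 genes. *Mki67* (ENSMUSG00000031004, chr7:135689784-135716361, minus strand) stood at 8.5, 17.2 and 22.9 TPM in HFD-fed mice and at 0.86, 7.96 and 55.4 TPM in LFD-fed mice, or 16.2 ± 7.23 TPM (SD, n = 3) and 21.4 ± 29.7 TPM (SD, n = 3). The SD exceeded the mean in LFD-fed mice and not in HFD-fed mice. The log2 fold change was 0.08 with a standard error of 1.05 (95% interval -2.43 to 2.58, edgeR adjusted p = 0.990). An interval of that width leaves room for more than a doubling in either direction. Without LFD replicate 1 the log2 fold change of *Mki67* was -0.49, and without LFD replicate 3 it was 2.12.

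*Top2a* (ENSMUSG00000020914, chr11:98992943-99024189, minus strand), the topoisomerase that untangles replicated chromosomes, stood at 15.0, 29.4 and 44.1 TPM in HFD-fed mice and at 1.2, 12.9 and 77.0 TPM in LFD-fed mice. The log2 fold change was 0.46 with a standard error of 1.05 (adjusted p = 0.939), and it was -0.11 without LFD replicate 1 and 2.43 without LFD replicate 3. The spindle genes *Kif11* (the motor that separates the spindle poles) and the spindle assembly factors *Tpx2* and *Nusap1* had log2 fold changes between 0.14 and 0.32 and differed by 22.7-fold to 49.6-fold among LFD-fed mice.

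The genes of mitotic exit and cytokinesis had the same arrangement of the mice. *Prc1* (ENSMUSG00000038943, chr7:80294450-80316259, plus strand), which bundles the microtubules of the central spindle, stood at 12.1, 22.7 and 35.5 TPM in HFD-fed mice and at 1.94, 8.05 and 74.8 TPM in LFD-fed mice, and the mice of the diets overlapped. Its log2 fold change of 0.21 had a standard error of 0.97 (edgeR adjusted p = 0.973) and was -0.34 without LFD replicate 1 and 2.19 without LFD replicate 3. *Ect2*, which activates RhoA at the cleavage furrow, stood at 3.91, 8.96 and 13.6 TPM in HFD-fed mice and at 0.20, 3.90 and 24.3 TPM in LFD-fed mice. Its 121-fold spread in LFD rests on 10 counts in LFD replicate 1, the fewest of any of the 37 genes in any mouse. *Cdc20* and *Ube2c*, which act with the anaphase-promoting complex, and the cytokinesis kinesins *Kif20a* and *Kif23* differed by 30.3-fold to 63.0-fold among LFD-fed mice. Fold changes of these 6 genes lay between 0.01 and 0.45 on the log2 scale.

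Set side by side, the role groups differed in how far LFD-fed mice spread and hardly in how far HFD-fed mice did, which is a description with no test. The TPM of the 24 mitotic genes differed by 16.8-fold to 168-fold (median 48.1) among LFD-fed mice, and that of the 13 genes of replication, nucleotide supply and entry into S phase by 2.63-fold to 28.0-fold (median 7.72). Among HFD-fed mice the medians were 2.74-fold and 2.53-fold. On the log2 CPM scale, where TMM factors adjust the library totals and not the mix of cell types, the median range over the mice of a diet was 0.75 in HFD and 3.92 in LFD for the 37 genes, against 0.61 and 1.04 for all genes tested. In LFD it was 4.47 for the 24 mitotic genes and 1.98 for the other 13. Each of the 24 mitotic genes had a range among LFD-fed mice at or above 3.25, above the 95th percentile of all genes (3.24). Spread was larger in LFD than in HFD for all 37 genes, and for 77.2% of all genes tested as well. A range over 2 log2 units in LFD was found for 30 of 37 genes and for 19.5% of all genes.

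**Figure D3:**
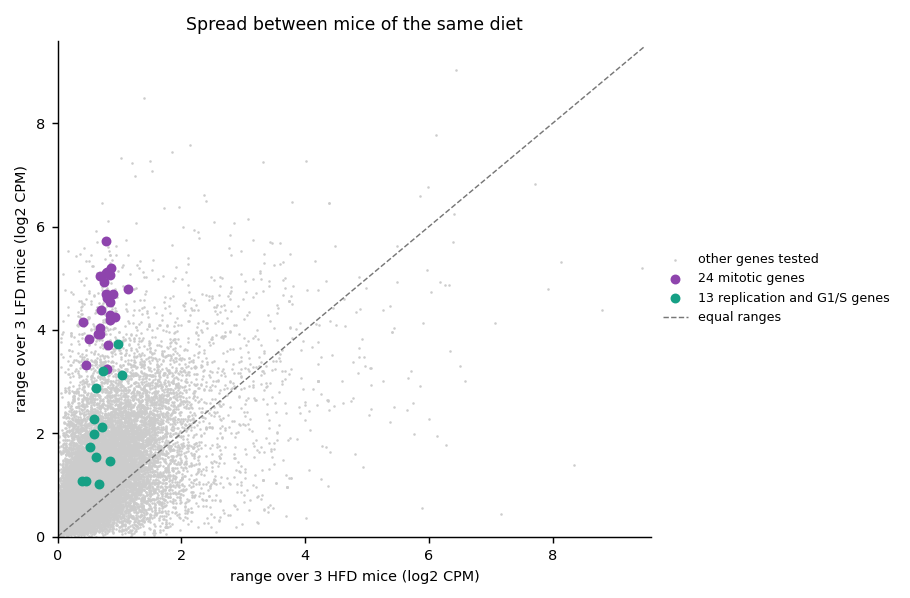
Each point is a gene, with the range of its log2 CPM over the 3 HFD-fed mice on the horizontal axis and over the 3 LFD-fed mice on the vertical axis, and the dashed line marks equal ranges. The 24 mitotic genes (purple) sit between 3.25 and 5.73 on the vertical axis and the 13 other cell cycle genes (green) between 1.02 and 3.73, while no cell cycle gene exceeds 1.13 on the horizontal axis.

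The balance of mitotic to replication genes also differed most between LFD replicates 1 and 3. Summed over the 24 mitotic genes the level was 158, 290 and 443 TPM in HFD-fed mice, against 21.2, 122 and 924 TPM in LFD-fed mice. Summed over the 9 licensing and fork genes it was 122, 188 and 277 TPM in HFD-fed mice and 62.2, 118 and 328 TPM in LFD-fed mice. The ratio of the sums, which does not depend on the scaling of a library, was 1.29, 1.54 and 1.60 in HFD-fed mice and 0.342, 1.03 and 2.82 in LFD-fed mice. For *Mki67* over *Pcna*, both in TPM, the ratio was 0.147, 0.202 and 0.194 in HFD-fed mice and 0.0286, 0.163 and 0.501 in LFD-fed mice. In both ratios LFD replicate 1 was the lowest and LFD replicate 3 the highest mouse, so the HFD-fed mice overlapped with the LFD-fed mice.

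**Figure D4:**
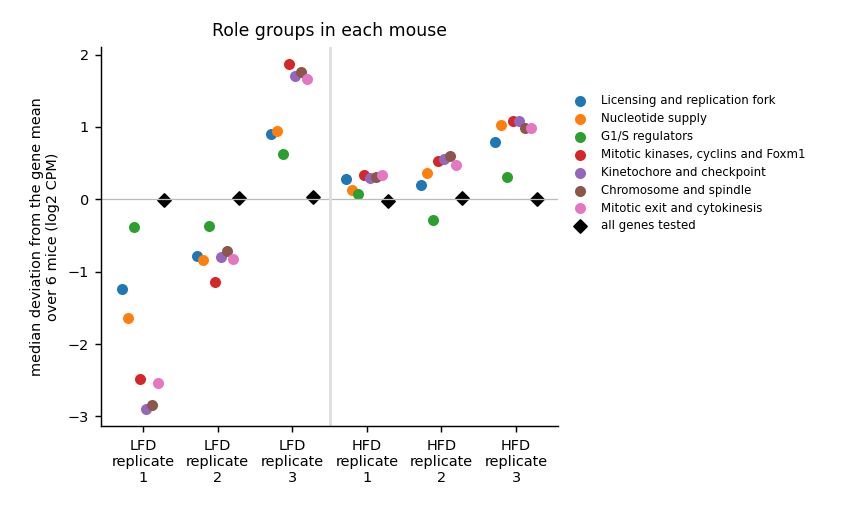
The vertical axis gives, for each mouse on the horizontal axis, the median deviation of a role group from each gene's mean over the 6 mice, in log2 CPM, with 1 colour per role group and black diamonds for all genes tested. The 4 mitotic groups go from between -2.90 and -2.48 in LFD replicate 1 to between 1.67 and 1.87 in LFD replicate 3, the licensing group from -1.24 to 0.90, and all genes tested stay near 0 in every mouse.

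The diet comparison turned on LFD replicate 3. Without that mouse 18236 genes could be tested, and 33 of the 37 cell cycle genes had an unadjusted p under 0.05 and were higher in HFD-fed mice, where 7.70% of all genes did so. The 4 exceptions were *Mcm7*, *Cdc45*, *Ccne1* and *Cenpf*. The median log2 fold change was then 2.05, and in 35 genes the HFD-fed mice lay above both remaining LFD-fed mice, against 16.8% of all genes. Even so 0 of the 37 genes passed the adjusted threshold, since adjusted p-values ran from 0.0716 for *Rrm2* to 0.927 for *Ccne1*. LFD replicate 3 was the highest mouse for most of these genes, so the rise follows in part from leaving it out. Most of the genes also varied together, so the 33 are not independent results. Without LFD replicate 1 the median log2 fold change turned to -0.23 and 10 genes lay above 0, against 46.7% of all genes. Without LFD replicate 2 it was -0.11 with 14 genes above 0, against 45.5% of all genes.

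The labels number the mice 1 to 3 in each diet, and same-numbered mice deviated together across genes. Compared within numbers, HFD replicate 1 lay above LFD replicate 1 in 35 of 37 genes and HFD replicate 2 above LFD replicate 2 in 36 genes, with median differences of 2.64 and 1.29 log2 CPM. HFD replicate 3 lay above LFD replicate 3 in 5 genes, with a median difference of -0.54. Of all genes tested, 48.5%, 50.4% and 52.5% were higher in the HFD-fed mouse of the 3 pairs. When the pairs entered the edgeR fit as blocks, the 37 genes had a median log2 fold change of 1.13, and *Pcna* (0.82, unadjusted p = 0.0107), *Cdt1* (1.45, unadjusted p = 0.0279) and *Rrm2* (1.65, unadjusted p = 0.0393) came under an unadjusted p of 0.05. These 3 genes, which are 8.11% of the 37, compare with 8.75% of all genes that were higher under the same rule. Lower under it were 0 of the 37 genes and 8.76% of all genes. The lowest adjusted p among the 37 genes was 0.150.

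The arrangement of the mice was also counted in genes of the same processes outside the 37, where 5.07% of all genes tested had it. Of 59 other G2 and mitosis genes, 0 had an unadjusted p under 0.05 in either direction and 55 had LFD replicates 1 and 2 below and LFD replicate 3 above all HFD-fed mice. Their smallest p-values belonged to *Cks1b*, a subunit of cyclin-dependent kinases, to *Cenpk* of the kinetochore and to the condensin *Smc2*, with log2 fold changes of -0.48, 0.40 and 0.42 and edgeR adjusted p-values of 0.766, 0.845 and 0.905. Of 47 other S phase genes, 0 had an unadjusted p under 0.05 and 28 had that arrangement, and the smallest p belonged to *Gmnn*, geminin, the inhibitor of *Cdt1* (0.85 on the log2 scale, adjusted p = 0.563). *Slbp*, which binds histone mRNA, and *Gins4* of the replicative helicase followed with log2 fold changes of 0.38 and -0.40. The median log2 fold change was 0.17 for the G2 and mitosis list and 0.32 for the S phase list. Without LFD replicate 3 the medians were 1.82 and 1.21, and with the replicate block they were 0.91 and 0.55. *Smc2* moved to 1.58, *Cenpk* to 0.85, *Gmnn* to 1.47 and *Cks1b* to -0.05 without LFD replicate 3.

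Histone genes, many of which are transcribed in S phase, were also highest in LFD replicate 3 as a sum. The list was taken by gene symbol, and whether each gene on it is tied to S phase was not checked. Summed over 70 histone genes the level was 3455, 4333 and 7091 TPM in HFD-fed mice and 1384, 2206 and 13216 TPM in LFD-fed mice. Of the 65 histone genes tested, 53 had LFD replicates 1 and 2 outside the HFD-fed mice on the low side and LFD replicate 3 on the high side, against 5.07% of all genes tested. The median log2 fold change of the 65 was 0.28, or 2.31 without LFD replicate 3 and 1.13 with the replicate block. The highest levels belonged to the histone H4 genes *Hist1h4d*, *Hist1h4c* and *Hist1h4m*, and the smallest p to *Hist3h2ba* (log2 fold change 1.91, edgeR adjusted p = 0.243), *Hist1h4i* and *Hist3h2a*. Histone genes have near-identical copies, and the deposited posterior SD reached 61.2% of the count for 1 of them, so the values of single histone genes are uncertain. For the 37 cell cycle genes that SD was at most 8.85% (*Kif20a*) and under 1% for 21 genes.

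The genes that act before S phase and the brakes of the cycle were mixed. Of 20 tested G1 cyclins and E2F and Myb factors, 7 had the arrangement of the 37 genes, against 5.07% of all genes tested. The median log2 fold change of 0.22 became 0.73 without LFD replicate 3. *Ccnd1*, cyclin D1, stood at 11.9, 22.5 and 29.1 TPM in HFD-fed mice and at 3.53, 11.6 and 19.3 TPM in LFD-fed mice (log2 fold change 1.27, standard error 0.37, edgeR adjusted p = 0.298). *Ccnd2*, cyclin D2, stood at 19.5, 15.99 and 23.1 TPM in HFD-fed mice and at 83.3, 80.6 and 35.0 TPM in LFD-fed mice (log2 fold change -1.77, standard error 0.57, adjusted p = 0.351). *E2f2*, an activating E2F factor, stood at 4.61, 4.36 and 4.39 TPM against 0.85, 3.04 and 3.44 TPM (log2 fold change 1.5, standard error 0.33, adjusted p = 0.191). These 3 genes had unadjusted p-values under 0.05 and adjusted p-values far above the threshold in edgeR, while *E2f2* passed both thresholds in DESeq2 with a log2 fold change of 1.52. Under the unadjusted rule 2 of the 20 genes were higher and 1 lower, where 3.86% of all genes tested were higher and 6.62% lower.

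Among 22 tested CDK inhibitors and other brakes, 2 had the arrangement of the 37 genes, against 5.07% of all genes tested. The fold change lay above 0 in 9 of the 22, with a median of -0.15 on the log2 scale that became 0.18 without LFD replicate 3. At an unadjusted p under 0.05, 3 were higher in HFD-fed mice and 0 lower, where 3.86% of all genes tested were higher and 6.62% lower. The 3 were the anti-proliferative gene *Btg2* (log2 fold change 0.94, standard error 0.28, edgeR adjusted p = 0.326), the atypical cyclin gene *Ccng2* (0.83, standard error 0.29, adjusted p = 0.398) and *Cdkn1a*, which encodes p21 (0.80, standard error 0.32, adjusted p = 0.462). On the log2 CPM scale the diets did not overlap for any of these 3 genes, which were picked for their small p. Of the 22 genes, 5 separated upwards and 0 downwards, against 6.72% and 9.23% of all genes tested. *Cdkn1a* stood at 16.9, 30.2 and 36.4 TPM in HFD-fed mice and at 14.6, 11.6 and 26.4 TPM in LFD-fed mice, so that on the TPM scale LFD replicate 3 lay above HFD replicate 1.

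Markers of immune, progenitor, endothelial and red cells also differed between the mice, and their part in the levels of the cell cycle genes was not tested. The 12 macrophage markers summed to 2005, 2537 and 4148 TPM in HFD-fed mice and to 667, 2820 and 4670 TPM in LFD-fed mice. For the 6 adipose progenitor markers the sums were 362, 735 and 873 TPM in HFD-fed mice and 343, 1086 and 1791 TPM in LFD-fed mice. In both sums LFD replicate 1 was the lowest and LFD replicate 3 the highest mouse, but LFD replicate 2 lay above HFD replicates 1 and 2 in both, where its mitotic sum of 122 TPM lay below theirs. Single macrophage markers did not all follow their sum, of which *Lyz2* gave 2755 TPM in LFD replicate 3. Most of the progenitor sum in that mouse came from 2 markers, *Ly6a* with 887 TPM and *Cd34* with 518 TPM. The progenitor marker *Pi16* was highest in LFD replicate 2, at 161 TPM against 62.5 TPM in LFD replicate 3. On the log2 CPM scale LFD replicate 3 was the highest mouse for 3 of the 12 macrophage markers and for 4 of the 6 progenitor markers, against 21.0% of all genes tested. LFD replicate 1 was the lowest for 11 of the 12 macrophage markers and 2 of the 6 progenitor markers, against 31.8% of all genes. *Cd68* (295 TPM) and *Fcgr1* (153 TPM) were highest in HFD replicate 3, against 155 and 43.4 TPM in LFD replicate 3. The 12 T and NK cell markers summed to between 15.4 and 48.2 TPM in HFD-fed mice and between 1.99 and 14.7 TPM in LFD-fed mice, and the 5 B cell markers to between 2.29 and 5.61 TPM and between 0.70 and 4.75 TPM. The 7 endothelial markers summed to between 102 and 423 TPM in HFD-fed mice and between 137 and 272 TPM in LFD-fed mice, and the 5 red cell markers to between 10182 and 18038 TPM and between 3278 and 15191 TPM. For none of these 4 lists was LFD replicate 3 the highest mouse. None of the markers of these 6 lists was listed at 0 in any mouse.

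The mature cell types of the pad differed between the mice too, and whether they bear on the cell cycle genes was not tested. The 12 brown adipocyte markers summed to 11163, 13107 and 6171 TPM in HFD-fed mice and to 13025, 10828 and 3603 TPM in LFD-fed mice. The sum was lowest in LFD replicate 3. In LFD-fed mice it was carried by genes of all adipocytes, among them *Fabp4* with 8136, 7354 and 2624 TPM. Some markers of brown adipocytes proper were lowest in LFD replicate 2 instead, with *Ucp1* at 443, 11.03 and 75.98 TPM and *Cidea* at 222, 18.9 and 38.6 TPM in LFD-fed mice, and *Dio2* and *Elovl3* were lowest in that mouse too. Others were lowest in LFD replicate 3, namely *Cox8b* (122 TPM), *Cpt1b* (22.2 TPM) and *Ppargc1a* (1.84 TPM). *Prdm16* was lowest in LFD replicate 1, at 3.22 TPM. All 12 skeletal muscle markers were lower in HFD-fed mice at an unadjusted p under 0.05, against 6.62% of all genes tested. Their edgeR adjusted p-values were at or above 0.170, and between 0.0102 and 0.0793 with the replicate block. Among the LFD-fed mice the sum of the muscle markers was lowest in LFD replicate 3, at 1904 TPM. The 5 genes listed as myogenic progenitor markers, each at 0 in at least 1 mouse, summed to 0.02, 0.09 and 0 TPM in HFD-fed mice and to 3.72, 39.2 and 3.90 TPM in LFD-fed mice, with LFD replicate 2 highest. Most of the LFD sums came from *Myf6*, with 3.36, 25.8 and 2.78 TPM. It was the only 1 of the 5 that passed the filter, so the sums do not measure progenitor cells.

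**Figure D5:**
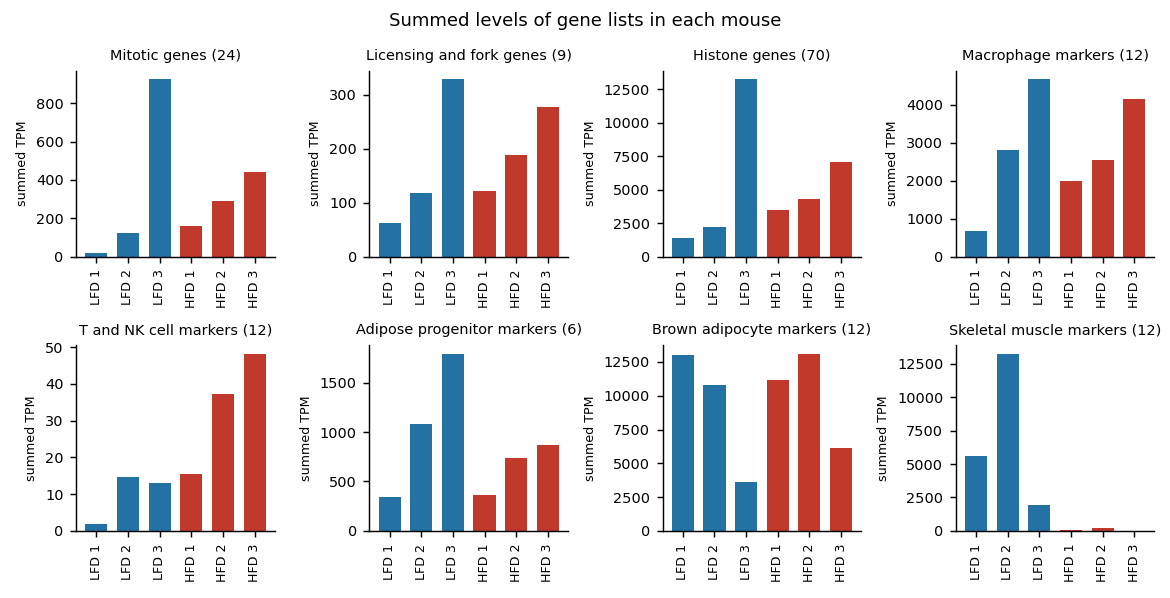
Bars give the summed TPM of a gene list in each mouse, on an axis from 0 that differs between panels, with LFD-fed mice in blue and HFD-fed mice in red and the number of genes in each panel title. The mitotic genes go from 21.2 TPM in LFD replicate 1 to 924 TPM in LFD replicate 3, where the sums of the histone genes, the macrophage markers and the adipose progenitor markers are highest too and that of the brown adipocyte markers is lowest, although *Ucp1* is lowest in LFD replicate 2.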

How the data were processed

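BAT of 3 HFD-fed and 3 LFD-fed mice was compared, with diets and replicate numbers taken from the labels. Per the submitters' processing notes and the study's methods, reads of 75 bases were trimmed with Trimmomatic 0.36 and quantified with RSEM 1.3.0 on GRCm38.p4 with Ensembl 84, and the study tested genes with DESeq2 1.10.1. The authors deposited, for each of 47729 genes, expected counts that are not normalized and divide a read among the genes it matches. The authors also deposited TPM values, which scale those counts by effective length to 1000000 per library, and posterior SDs of the expected counts.

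Expected counts were rounded and tested over the whole table in R 4.3.3 with edgeR 4.0.16 (limma 3.58.1), by the quasi-likelihood test with filterByExpr, TMM factors, no robust fitting and Benjamini-Hochberg adjustment. The biological coefficient of variation was 0.448. Standard errors were taken as the absolute log2 fold change over the square root of F, and log2 CPM used a prior count of 2. Total counts of 17156991 to 21603487 leave a counting error that adds to the spread between mice where a gene has few counts. The p-values rest on 3 mice per diet. Chi-square values per degree of freedom between mice of 1 diet were 71.7 to 558, so no library was a copy of another. The edgeR test was also run on simulated counts with means and dispersions taken from these data, and its outcome is not given here.

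The genes and lists were chosen with earlier results of these data known. Full statistics are given for up to 3 genes with the smallest p in each direction, the 5 with the highest mean TPM, *Mki67* and *Top2a*, and for the 3 smallest p-values of each other pathway list. *Rrm2*, *Ccnb1*, *Cenpf* and *Ect2* were added after their values were seen. Cell type markers were summed in TPM.

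The deviations of same-numbered mice from their diet means correlated across genes with r of 0.498, 0.229 and 0.522 in the 3 pairs, and between -0.528 and 0.0532 in the other pairs. Genes are not independent replicates, and the sources name no matching of mice by number. The number entered as a block in an alternative fit. Other alternatives were DESeq2 1.42.0, RLE size factors, other filters on low counts, mitochondrially encoded genes left out, log2(TPM + 1), looser thresholds and the 6 fits that leave out 1 mouse. Leaving out red cell marker and histone genes was chosen after seeing the data. Gene positions are from GENCODE M21 (GRCm38) and promoters from RefSeq (GRCm38.p6).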

Additional observations from a re-analysis of the deposited data

How the results depend on the processing

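The number of the 37 genes called was 0 under every alternative run, DESeq2 included (no adjusted p for *Cdk1*). Over the whole table edgeR called 0 genes, with 1851 at an unadjusted p under 0.05, and DESeq2 called 412 (106 higher, 306 lower). The cause of that gap was not tested. With the replicate number as a block (replicate pairing), 3 of the 37 genes had an unadjusted p under 0.05 in place of 0, the median log2 fold change went from 0.24 to 1.13, and *Foxm1* turned from -0.13 to 0.74 and *Ccnb2* from -0.04 to 1.02, and the block changed no other direction or call among the 37 genes. With 1 mouse left out, the number of the 37 genes at an unadjusted p under 0.05 ranged from 0 to 33 (33 without LFD replicate 3), the number that did not overlap between diets from 0 to 35 (35 without LFD replicate 3, 1 without HFD replicate 2 and 1 without LFD replicate 2), and the median log2 fold change from -0.23 (without LFD replicate 1) to 2.05 (without LFD replicate 3). With 1 mouse left out, signs turned within these ranges of log2 fold changes: *Cdc45* from -0.54 to 0.16, *Foxm1* -0.66 to 1.77, *Cdk1* -0.23 to 2.72, *Top2a* -0.11 to 2.43, *Prc1* -0.34 to 2.19, *Mki67* -0.49 to 2.12 and *Smc2* -0.01 to 1.58, each lowest without LFD replicate 1 (*Cdc45* without LFD replicate 2) and highest without LFD replicate 3. *Cdt1* (0.52 to 2.23), *Mcm5* (0.29 to 2.11), *Mcm6* (0.15 to 1.78) and *Pcna* (0.56 to 1.17) kept their sign. *E2f2* passed the thresholds with DESeq2 (1.52). For the 11 named cell cycle genes and 15 other genes, the other 320 comparisons kept their direction and call. The median of 0.24 lay between 0.21 and 0.55 under the other scalings and filters. With 10 to 152 counts per mitotic gene in LFD replicate 1, the lowest mitotic levels carry a counting error beside the spread between mice.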
